A study of Mus musculus with 25 samples.

Results

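SMC1 was compared between 2 mouse cell lines in the state in which each has TCF-1: Scid.adh cells carrying an empty vector, and NIH-3T3 cells induced for TCF1. These were 3 of the 25 samples of the series, taken by antibody, cell line and treatment as labelled. Scid.adh is a thymic lymphoma line that stands for T cell precursors of the DN3 (double negative 3) stage and has TCF-1 of its own. It is called DN3 below, and its 2 SMC1 samples are DN3 list 1 and DN3 list 2. NIH-3T3 is an embryonic fibroblast line, and it was studied after induction of TCF1. A single fibroblast SMC1 list and a single fibroblast TCF-1 list were used. TCF-1 was mapped in DN3 cells with an empty vector (2 lists) and in induced fibroblasts. The other lists used were CTCF of both lines with TCF-1 (2 lists each), and NIPBL and H3K27ac of DN3 cells with an empty vector (2 lists each). SMC1 of Scid.adh cells with a TCF1 knockout (2 lists) and of untreated NIH-3T3 cells (1 list) served to look the regions up. The labels do not say whether the lists came from separate cultures, nor how TCF1 was induced or removed. Each line is 1 established line, so cell type, line and vector cannot be told apart.

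Cohesin is a ring-shaped complex that holds DNA and extrudes it into loops, and SMC1 is a core subunit of the ring. NIPBL loads cohesin onto chromatin, often at active promoters and enhancers. CTCF stops the moving ring, which places many cohesin peaks at loop anchors. TCF-1, encoded by Tcf7, is a high-mobility-group factor that binds TCF/LEF motifs and is needed for the commitment of early thymocytes to the T lineage. H3K27ac is a histone acetylation of active promoters and enhancers. The study asked what TCF-1 does to genome folding.

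The peaks of the 3 SMC1 lists were merged into 133638 regions wherever they touched, and a region belonged to a list when a peak of it overlapped by at least 1 bp. The lists gave positions only, without heights or read totals, so the depth is unknown and no peak could be weighed by its signal. With 2 lists against 1, the smallest exact 2-sided p over lists is 0.333, so every comparison between the lines is a description without a test.

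Promoters at which the 3 lists did and did not share SMC1 are printed first, because they show the sequence behind each kind of region. RefSeq promoter windows of GRCm38.p6 (mm10), from 250 bases before to 50 bases after a transcription start, were matched for 146 of the 212 genes in the 13 gene lists described further on. Capitals mark the TCF/LEF core CTTTGAT or the CTCF core, which reads CCA, any 2 bases, AG, any 2 bases and GGC, each searched on both strands, and a window without capitals held neither. Tcf7, Cd3d and Myb are T lineage genes whose promoters held SMC1 in both DN3 lists only. Tcf7 is shown at an annotated start on the minus strand, chr11:52282965-52283264, where TCF-1 of both lines was also found. Cd3d encodes a chain of the T cell receptor complex, lies on the plus strand at chr9:44981536-44981835, and held no TCF-1 in either line although a TCF/LEF core starts 55 bases before its start. Myb, a transcription factor of blood progenitors, lies on the minus strand at chr10:21160935-21161234 and held TCF-1 of DN3 cells alone.
Tcf7: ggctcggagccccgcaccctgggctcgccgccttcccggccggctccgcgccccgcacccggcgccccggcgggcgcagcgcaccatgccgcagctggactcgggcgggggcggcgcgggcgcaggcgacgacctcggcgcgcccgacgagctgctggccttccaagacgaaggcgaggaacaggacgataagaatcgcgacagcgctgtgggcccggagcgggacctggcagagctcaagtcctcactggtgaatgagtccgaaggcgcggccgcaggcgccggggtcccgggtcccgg
Cd3d: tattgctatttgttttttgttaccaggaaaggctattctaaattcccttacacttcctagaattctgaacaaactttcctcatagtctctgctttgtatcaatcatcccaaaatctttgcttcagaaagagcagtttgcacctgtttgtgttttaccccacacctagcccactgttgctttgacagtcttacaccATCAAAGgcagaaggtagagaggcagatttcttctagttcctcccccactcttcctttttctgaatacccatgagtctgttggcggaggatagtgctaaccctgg
Myb: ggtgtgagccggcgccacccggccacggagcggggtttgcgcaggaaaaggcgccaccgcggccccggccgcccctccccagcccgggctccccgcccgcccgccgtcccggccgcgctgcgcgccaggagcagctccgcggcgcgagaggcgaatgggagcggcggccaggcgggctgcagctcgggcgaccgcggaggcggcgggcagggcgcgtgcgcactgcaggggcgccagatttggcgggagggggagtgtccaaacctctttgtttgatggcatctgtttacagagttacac

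SMC1 of all 3 lists, with TCF-1 and CTCF of both lines, was found at the promoters of Fyn and Axin2. Fyn encodes a Src family kinase of T cell receptor signalling (chr10:39369549-39369848, plus strand), with a TCF/LEF core 96 bases before the start. Axin2 is a negative feedback gene of Wnt signalling (chr11:108920099-108920398, plus strand), with a CTCF core 135 bases before it. SMC1 of the fibroblast list only, with fibroblast TCF-1 and CTCF, was found at Amotl2 and Foxc1. Amotl2 encodes an angiomotin family regulator of YAP (chr9:102717554-102717853, plus strand), and its TCF/LEF core starts 97 bases before the start. Foxc1 encodes a mesenchymal forkhead factor (chr13:31806396-31806695, plus strand), with a CTCF core 160 bases before the start.
Fyn: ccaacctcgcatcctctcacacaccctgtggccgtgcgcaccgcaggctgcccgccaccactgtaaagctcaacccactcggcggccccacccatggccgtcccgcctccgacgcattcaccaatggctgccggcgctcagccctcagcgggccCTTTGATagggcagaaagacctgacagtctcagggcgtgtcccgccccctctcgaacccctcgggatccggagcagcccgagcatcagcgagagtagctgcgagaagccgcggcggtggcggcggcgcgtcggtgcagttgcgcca
Axin2: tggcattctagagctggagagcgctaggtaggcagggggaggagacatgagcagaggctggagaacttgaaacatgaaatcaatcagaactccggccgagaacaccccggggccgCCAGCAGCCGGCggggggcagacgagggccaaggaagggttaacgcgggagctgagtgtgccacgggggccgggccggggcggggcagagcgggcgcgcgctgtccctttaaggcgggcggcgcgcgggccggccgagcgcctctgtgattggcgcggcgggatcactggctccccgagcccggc
Amotl2: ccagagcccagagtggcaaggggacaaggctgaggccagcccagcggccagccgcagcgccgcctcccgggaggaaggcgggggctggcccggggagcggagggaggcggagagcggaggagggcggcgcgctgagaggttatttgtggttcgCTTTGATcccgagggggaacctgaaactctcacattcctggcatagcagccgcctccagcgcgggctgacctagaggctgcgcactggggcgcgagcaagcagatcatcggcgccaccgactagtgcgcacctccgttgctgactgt
Foxc1: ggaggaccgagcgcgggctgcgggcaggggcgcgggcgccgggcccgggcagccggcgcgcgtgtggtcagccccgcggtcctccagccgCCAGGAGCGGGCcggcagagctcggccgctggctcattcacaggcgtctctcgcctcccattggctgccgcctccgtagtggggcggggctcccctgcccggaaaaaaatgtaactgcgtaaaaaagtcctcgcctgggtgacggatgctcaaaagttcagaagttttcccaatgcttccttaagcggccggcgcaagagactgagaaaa

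Letters alone did not separate the classes of promoter. A TCF/LEF core stood in 3.22% of all 21238 promoter windows, in 2.17% of windows at a DN3 TCF-1 site, in 2.54% at a fibroblast TCF-1 site and in 3.63% at neither. A CTCF core stood in 2.34% of all windows, in 3.52% of those with SMC1 in all lists and in 1.54% of those with SMC1 in none. A match describes these letters in this window and nothing about a bound factor.

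SMC1 of all 3 lists was found in 37173 regions (27.8% of the 133638), which are called shared below. A further 15556 regions (11.6%) were in both DN3 lists only, and 51205 (38.3%) in the fibroblast list only. The remaining 29704 regions (22.2%) were in 1 DN3 list, with or without the fibroblast list. Of these, 9893 were in DN3 list 1 alone and 12943 in DN3 list 2 alone, so disagreement between the DN3 lists took in more regions than the DN3-only class held. Such regions were narrow, with a median of 290 bp, and are left out of the comparisons below.

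DN3 lists 1 and 2 held 70438 and 77587 peaks, and the fibroblast list held 95293. The median peak was 394 bp and 380 bp wide in the DN3 lists and 616 bp in fibroblasts. Covered length differed more than the number of peaks, at 37.5 Mb and 38.7 Mb in the DN3 lists against 94.4 Mb in the fibroblast list. The widest fibroblast peak spanned 33655 bp, against 7173 bp and 7322 bp in DN3 cells. The DN3 lists overlapped 81.6% and 74.4% of each other's peaks, while the fibroblast list overlapped 63.0% and 61.9% of theirs. Conversely, the DN3 lists overlapped 40.8% and 44.4% of the fibroblast peaks. The difference between the lines was therefore larger than that between the DN3 lists in each of these overlaps.

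Shared regions were the widest, with a median of 894 bp against 494 bp for DN3-only and 550 bp for fibroblast-only regions. Among regions of at least 5 kb, 804 were shared, 360 were in the fibroblast list only and 4 were in both DN3 lists only. A shared region is the union of up to 3 sets of peaks, so its width is not that of a single peak. Taken by their own peaks, DN3 list 1 had a median of 440 bp at shared and 393 bp at DN3-only regions, DN3 list 2 had 445 bp and 382 bp, and the fibroblast list had 764 bp at shared and 550 bp at fibroblast-only regions.

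**Figure D1:**
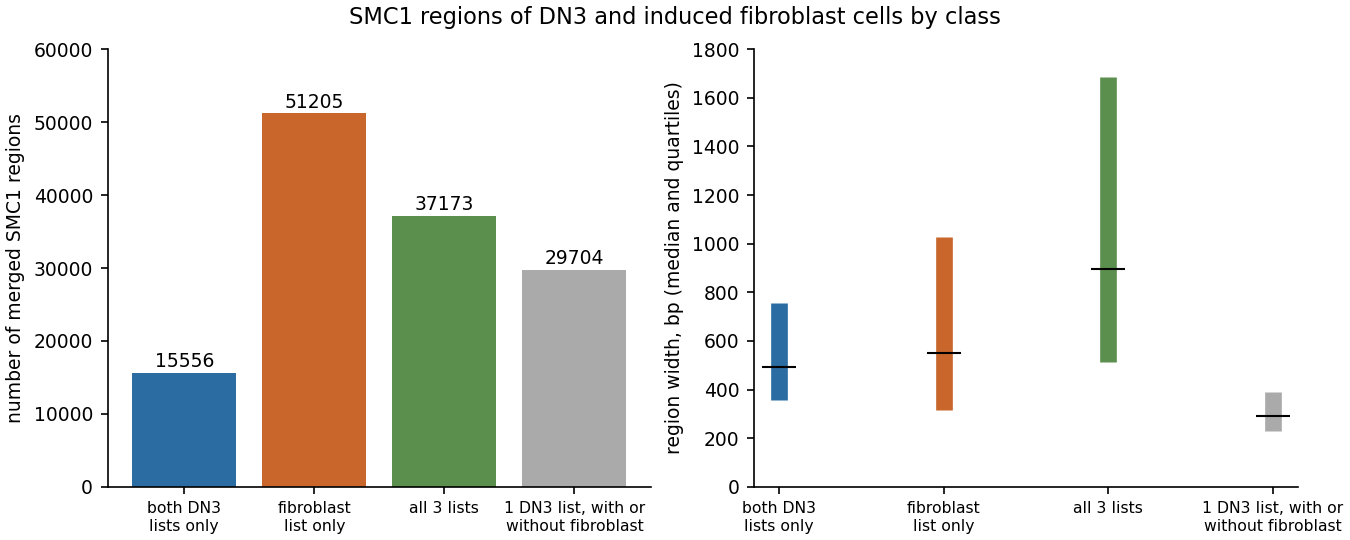
Number of merged SMC1 regions (left) and their width in bp (right, bar from the lower to the upper quartile, line at the median) by the lists that held them. Fibroblast-only regions were the most numerous at 51205, and shared regions the widest with a median of 894 bp.

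CTCF marked the shared regions. CTCF of DN3 lists 1 and 2 overlapped 78.6% and 85.9% of shared regions, against 24.8% and 33.9% of DN3-only regions and 2.12% and 4.78% of fibroblast-only regions. Fibroblast CTCF overlapped 86.9% and 84.9% of shared regions in its 2 lists, 27.1% and 25.2% of fibroblast-only regions and 16.6% and 15.5% of DN3-only regions. The gap between shared and line-specific regions was larger than that between replicate CTCF lists in every case. All 4 CTCF lists overlapped 27921 shared regions (75.1%), and none of the 4 overlapped 3219 (8.66%).

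DN3-only regions carried the acetylation of active elements. H3K27ac of DN3 lists 1 and 2 overlapped 66.1% and 66.7% of DN3-only regions, 38.7% and 39.2% of shared regions and 6.40% and 6.87% of fibroblast-only regions. NIPBL of DN3 cells overlapped 9.55% and 20.2% of DN3-only regions, 17.7% and 25.4% of shared regions and 0.0976% and 0.400% of fibroblast-only regions. At DN3-only regions the 2 NIPBL lists differed from each other by more than DN3-only and shared regions did within either list. No CTCF of either DN3 list was found at 10025 DN3-only regions (64.4%), of which 78.5% held H3K27ac in both lists. Among the 3599 DN3-only regions with CTCF in both lists, 31.5% did. Fibroblast acetylation and NIPBL were not analysed here, so no such share can be given for the fibroblast-only regions.

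Annotated transcription starts were taken without a filter for protein-coding genes. One lay within 1 kb of 20.9% of shared regions, 7.07% of DN3-only and 5.71% of fibroblast-only regions, against 9.89% of all regions. Shared regions without CTCF differed from those with it. Of the 3219 without CTCF in any list, 43.9% lay at a start and 88.6% held H3K27ac, against 14.6% and 26.7% of the 27921 with CTCF in all 4 lists.

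**Figure D2:**
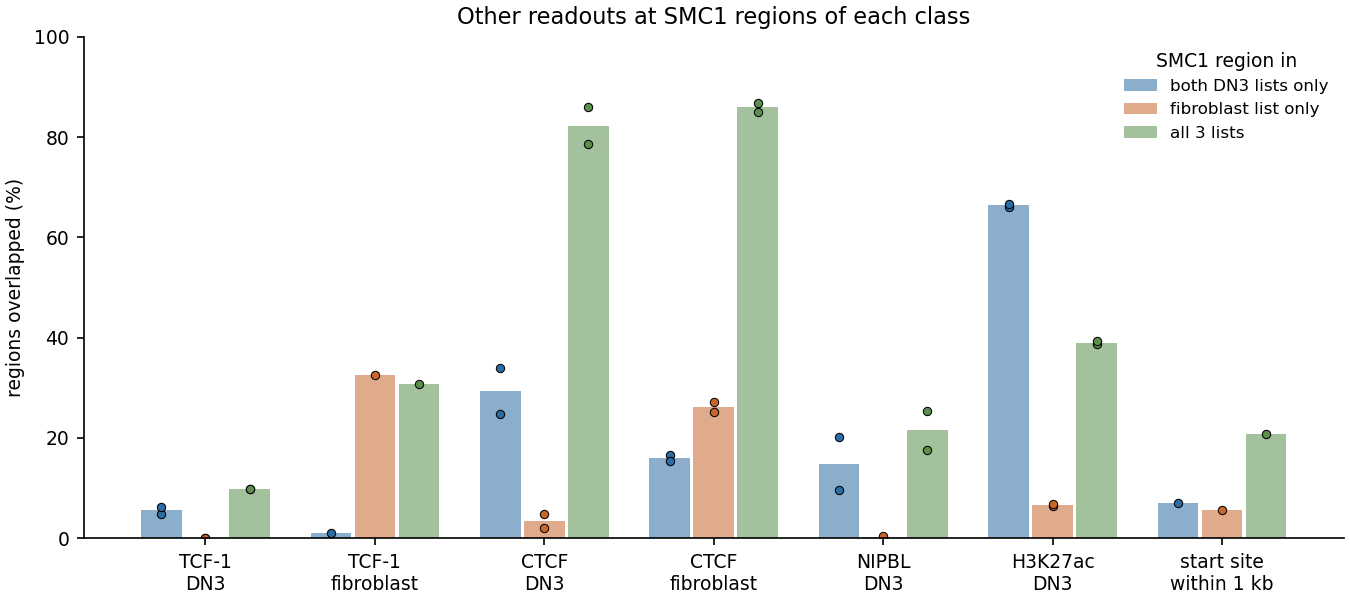
Share of SMC1 regions of each class (percent, vertical axis) overlapped by each other readout; points are single lists and bars their mean, and the start site comes from the annotation. CTCF of both lines is highest at shared regions (78.6% to 86.9%), and DN3 H3K27ac at DN3-only regions (66.1% and 66.7%).

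TCF-1 of DN3 cells had 4978 and 5356 peaks, and the 3107 merged sites in both lists are called DN3 TCF-1 sites. TCF-1 of induced fibroblasts had 39489 peaks in its single list. DN3 TCF-1 sites lay in 2506 shared regions (6.74%), 452 DN3-only regions (2.91%) and 1 fibroblast-only region, against 2.23% of all regions. Taken by single lists, DN3 TCF-1 overlapped 9.74% and 9.72% of shared regions and 4.88% and 6.30% of DN3-only regions. Fibroblast TCF-1 lay in 16657 fibroblast-only regions (32.5%, exact 95% binomial interval 32.1% to 32.9%), 11445 shared regions (30.8%, 30.3% to 31.3%) and 147 DN3-only regions (0.945%, 0.799% to 1.11%), against 22.2% of all regions. These intervals cover counting error only. TCF-1 of both lines met in 2347 shared regions and in 29 DN3-only regions.

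Region width moved with these shares, and the order of DN3-only and shared regions in DN3 TCF-1 turned when width was held. Among regions between 318 bp and 1019 bp wide, the quartiles of all regions, DN3 TCF-1 lay in 1.64% of 11447 DN3-only regions and 0.955% of 19893 shared ones. In the same range, fibroblast TCF-1 lay in 29.8% of 25124 fibroblast-only regions and 9.71% of shared regions. H3K27ac was at 64.5% of DN3-only, 15.7% of shared and 5.39% of fibroblast-only regions there, and NIPBL at 5.51%, 3.46% and 0.0239%. Starts lay near 6.47%, 6.92% and 4.14% of these classes. CTCF kept its order, with DN3 CTCF at 84.2% of shared and 22.5% of DN3-only regions and fibroblast CTCF at 89.8% of shared and 18.4% of fibroblast-only regions. The higher share of DN3 TCF-1 in shared regions was thus not seen at middle width, whereas near absence of each line's TCF-1 from SMC1 regions of the other line alone was seen at both settings. Fibroblast TCF-1 lay in 0.909% of DN3-only and DN3 TCF-1 in 0.00398% of fibroblast-only regions of middle width.

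Read from the TCF-1 sites, most TCF-1 of DN3 cells stood where cohesin was found in fibroblasts too. Of the 3107 DN3 TCF-1 sites, 83.9% fell in shared SMC1 regions, 14.8% in DN3-only regions and 0.547% in none. The single lists gave 78.5% and 72.7% in shared regions and 15.9% and 18.7% in DN3-only regions. Of the 39489 fibroblast TCF-1 peaks, 38.3% fell in shared regions, 48.7% in fibroblast-only regions and 8.33% in none.

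The class of SMC1 region differed between DN3 sites with and without fibroblast TCF-1. DN3 TCF-1 sites that fibroblast TCF-1 also held numbered 2416, and 98.3% of them were in shared regions. The other 691 DN3 TCF-1 sites had 62.4% in DN3-only and 33.4% in shared regions. Conversely, the 35284 fibroblast TCF-1 peaks away from DN3 TCF-1 had 54.4% in fibroblast-only and 31.2% in shared regions.

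**Figure D3:**
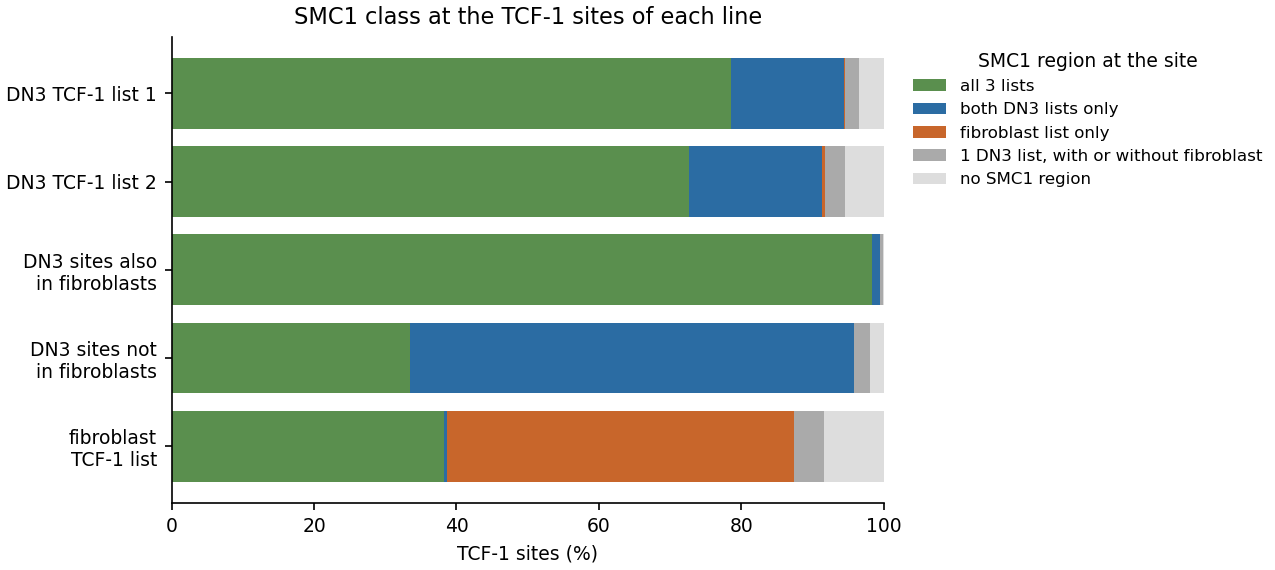
Percent of TCF-1 sites (horizontal axis) by the class of SMC1 region at the site, for both DN3 TCF-1 lists, the DN3 sites found and not found in fibroblasts, and the fibroblast list. Sites of both lines lie almost wholly in shared regions (98.3%), while DN3 sites not found in fibroblasts lie mostly in DN3-only regions (62.4%), and 48.7% of the whole fibroblast list lies in fibroblast-only regions.

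DN3-only regions at TCF-1 were wider and more often acetylated than the others of their class. The 452 such regions had a median width of 1166.5 bp, held H3K27ac in 92.9% and NIPBL in both lists in 47.1%, against 484 bp, 63.3% and 6.68% for the other 15104. CTCF of both DN3 lists was at 28.3% of them and at 23.0% of the rest. SMC1 was in both knockout lists at 97.1% of them and 86.7% of the rest. Starts lay near 13.7% of them and 6.87% of the rest. A gene body was overlapped by 53.8% of them, and no such share is given for the rest. At the 2347 shared regions with TCF-1 of both lines, starts lay near 77.5%, H3K27ac at 99.1% and NIPBL at 80.2%, against 17.0%, 33.3% and 12.8% of the other shared regions. Their median width was 2137 bp against 834 bp, and width was not held in this comparison. Fibroblast-only regions at fibroblast TCF-1 had a median of 974 bp against 414 bp without it, and CTCF of both fibroblast lists at 17.4% against 25.2%.

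The widest DN3-only regions at TCF-1, ranked by the lower of their width percentiles over the 2 lists, included those of Cxcr4, Tcf7 and Ikzf1. The one at Rcsd1 spanned 5294 bp (chr1:165705333-165710626). At Cxcr4, a chemokine receptor of thymocyte migration, a region of 3701 bp covered the start (chr1:128590630-128594330). At Tcf7 itself a region of 5333 bp (chr11:52279510-52284842) covered the start and was the only one of the leading 8 at which fibroblast TCF-1 was also found. Reads of any introduced Tcf7 copy and of the gene itself cannot be told apart in these lists. At Ikzf1, which encodes the lymphoid zinc finger factor Ikaros, a region of 3341 bp covered the start (chr11:11683976-11687316). The next were at Enthd1 (3835 bp), 172475 bp from Lef1, a TCF-1 paralogue (3549 bp, chr3:130934274-130937822), and 21098 bp from Ankrd46 (4260 bp). The last was a region of 3191 bp lying 47887 bp from Rbpj, the DNA-binding partner of Notch. All but that one held CTCF, NIPBL, H3K27ac and SMC1 of the knockout cells in both lists each, and were missing from the untreated fibroblast list.

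The leading fibroblast-only regions at TCF-1 were wider. The first, in the collagen crosslinking gene Loxl1, spanned 20823 bp (chr9:58295536-58316358). At Thbs2, a matrix thrombospondin gene, the region spanned 19439 bp, and at Hoxa2, a patterning gene, 18044 bp. Hmga2, a chromatin architectural gene of growing mesenchyme, held 16925 bp, and Prrx1, a mesenchymal homeobox gene, 16838 bp. The others were Synpo (15757 bp), Fbln2 (15603 bp) and a region of 20649 bp at 309593 bp from Gm40514. All 8 were also in the untreated fibroblast list, and all but Thbs2 held CTCF in both fibroblast lists.

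Among shared regions at TCF-1 of both lines, the leading 8 lay at or beside named genes. Brd2, which encodes a reader of acetylated histones, had a region of 16818 bp, and Scd2, a fatty acid desaturase gene, one of 23831 bp. Fkbp5, a glucocorticoid response gene, had 14839 bp, and Myc, a growth regulator, 11003 bp (chr15:61982650-61993652). Cebpb, Vegfa, Armc12 and Actb followed with 13960 bp, 22388 bp, 10834 bp and 9557 bp. Each of these 8 held CTCF of all 4 lists, NIPBL and H3K27ac of both DN3 lists, and SMC1 of every other list.

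Genes were compared by the share of their body plus 10 kb on each side that SMC1 peaks covered. Over the 15394 protein-coding genes compared, this share had a Spearman correlation of 0.955 between the DN3 lists and of 0.497 and 0.519 between each and the fibroblast list, as a description across genes that share windows and chromatin. A gene was called higher in DN3 where both DN3 lists covered at least 2 times the length of the fibroblast list and at least 1 kb each, and higher in fibroblasts by the reverse rule. Of 21887 protein-coding genes, 585 (2.67%) were higher in DN3 and 6798 (31.1%) in fibroblasts. With each list divided by its own covered length 3446 (15.7%) were higher in DN3 and 2448 (11.2%) in fibroblasts, so the balance of calls turned with this scaling. The 1 kb minimum was divided by the covered length of the fibroblast list, so it stayed 1 kb there and was shorter for the DN3 lists. Rag2, with 543 bp and 579 bp in the DN3 lists against 505 bp, was thus called higher in DN3 after scaling.

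Cohesin sharing was common around genes. A shared region lay at 70.2% of the genes, a DN3-only region at 25.5% and a fibroblast-only region at 51.1%. Shared regions alone were at 3952 genes (18.1%), while 3202 (14.6%) had all 3 classes and 4503 (20.6%) had none. A DN3-only region at a DN3 TCF-1 site lay at 346 genes (1.58%), a fibroblast-only region at a fibroblast TCF-1 site at 5802 (26.5%), and a shared region at TCF-1 of both lines at 3478 (15.9%).

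T lineage regulators had more SMC1 in DN3 cells. Of 20 such genes, 12 were higher in DN3 and 3 in fibroblasts (60% and 15%, against 2.67% and 31.1% of all genes). After scaling these were 13 and 1, against 15.7% and 11.2% of all genes, and the same shares of all genes stand behind the counts of every list below. A DN3-only region at TCF-1 lay at 8 of the 20, against 1.58% of all genes. The window of Myb was covered to 41.6% and 23.1% in DN3 lists 1 and 2 and to 0% in fibroblasts. Bcl11b, the factor of T lineage commitment, had 31.2% and 21.8% against 0.811%. For Ikzf1 the shares were 30.9% and 19.97% against 0.339%. Gfi1, a repressor of early lymphoid cells, had 27.1% and 17.1% against 0%. Tcf7 had 34.8% and 22.8% against 8.29%, with 10 DN3-only and 3 shared regions. In each of these 5 the DN3 lists differed from each other by less than either differed from the fibroblast list.

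Other members of the list went the opposite way. Id3, an inhibitor of E proteins that fibroblasts also use, was covered to 11.6% and 11.2% in DN3 and 71.5% in fibroblasts. Ets1 had 11.5% and 8.57% against 41.5%, and Cbfb, the partner of Runx factors, 5.32% and 4.50% against 24.8%. Id3 remained higher in fibroblasts after scaling, whereas Ets1 and Cbfb were called in neither line. Id3 had 6 peaks in each DN3 list and 3 in fibroblasts, and Ets1 27 and 21 against 23, so neither had more peaks in fibroblasts than in both DN3 lists.

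Genes of the T cell receptor and its signalling followed, with 14 of 25 higher in DN3 (56%, against 2.67%) and 1 in fibroblasts (20 and 0 after scaling, against 15.7% and 11.2%). Cd247, the zeta chain, was covered to 29.9% and 21.7% in DN3 and to 4.32% in fibroblasts, and Cd3e to 22.3% and 19.5% against 1.06%. The windows of Cd3d, Cd3e and Cd3g overlap, so these 3 are not separate cases. Ptprc, which encodes CD45, had 26.4% and 15.4% against 1.07%, with 20 DN3-only regions, 3 of them at TCF-1. Cd2, an adhesion receptor, had 33.5% and 24.4% against 9.72%, and Lat, a signalling adaptor, 16.4% and 15.7% against 4.84%. The gene higher in fibroblasts was Cd6, at 0.672% and 2.43% against 5.28%, and it was called in neither line after scaling. Some genes had more than 1 promoter window, so windows are not separate cases. At promoters, 14 of 23 windows of this list (18 genes) held DN3-only SMC1, 1 held shared SMC1 and 0 held fibroblast-only SMC1. Of the 35 promoter windows of T lineage regulators (16 genes), 13 held DN3-only, 13 shared and 0 fibroblast-only SMC1. Over all promoters these classes made up 2.30%, 36.1% and 10.7%.

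DN3 H3K27ac, which took no part in the calls, covered a median of 37.5% and 38.7% of the windows of T lineage regulators and of 44.5% and 42.7% of those of T cell receptor genes. The median over all genes was 3.34% and 3.37%, and that of the fibroblast matrix list was 0% in both lists.

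**Figure D4:**
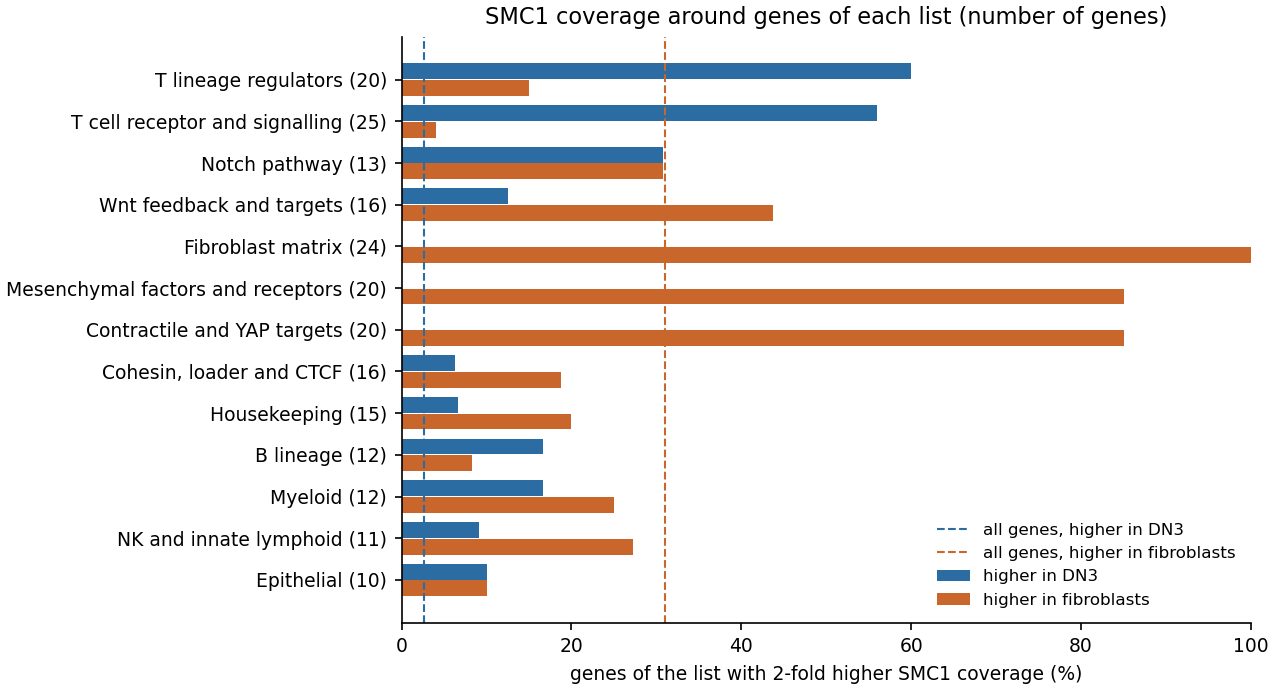
Percent of the genes of each list (horizontal axis, number of genes in brackets) with 2-fold higher SMC1 coverage in DN3 or in fibroblasts; dashed lines give the share over all genes (2.67% and 31.1%). The T lineage and T cell receptor lists lie highest for DN3, and the fibroblast matrix list has 24 of 24 genes higher in fibroblasts.

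Fibroblast matrix genes were all higher in fibroblasts, 24 of 24 against 31.1% of all genes, and 23 of 24 after scaling against 11.2%. Col6a1 had 3.35% and 4.96% of its window covered in the DN3 lists and 78.7% in fibroblasts, and Col1a2 1.90% and 1.84% against 65.5%. Col1a1, the main fibrillar collagen chain with Col1a2, had 7.68% and 5.87% against 72.2%, although its number of peaks was lower in fibroblasts. Lox, a collagen crosslinking oxidase, had 0% in both DN3 lists and 52.6% in fibroblasts, and Thbs1, a matrix glycoprotein, 1.01% and 1.05% against 52.2%. A fibroblast-only region at fibroblast TCF-1 lay at 21 of the 24 genes, against 26.5% of all genes, and a shared region at TCF-1 of both lines at 0 of 24, against 15.9%.

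Mesenchymal factors and receptors had 17 of 20 genes higher in fibroblasts (85%, against 31.1%) and 0 in DN3, with 16 after scaling, against 11.2%. Fgfr1, a fibroblast growth factor receptor, was covered to 4.19% and 2.94% in DN3 and to 75.95% in fibroblasts. Prrx1 had 0.264% and 0.223% against 58.6%, and Twist1, a mesenchymal helix-loop-helix factor, 0% and 0% against 38.8%. Runx2, the osteoblast and mesenchymal Runx factor, had 0.544% and 0.618% against 27.04%, with 44 fibroblast-only and 3 shared regions. Its paralogue Runx1, used by T cells, had 13.8% and 7.72% against 13.6%, with 13 DN3-only, 11 fibroblast-only and 10 shared regions. Tcf21 and Meox2 had no SMC1 peak in any of the 3 lists.

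Contractile genes and targets of the mechanical YAP pathway had 17 of 20 higher in fibroblasts (85%, against 31.1%) and 10 after scaling, against 11.2%. Amotl2 was covered to 0.823% and 0.895% in DN3 and to 71.6% in fibroblasts. Ccn1, a YAP target, had 0% in both DN3 lists and 55.9% in fibroblasts. Vim, which encodes vimentin, had 2.51% and 2.49% against 43.6% and fewer peaks in fibroblasts, so the difference there lies in peak width.

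The Notch pathway list of 13 genes holds pathway components together with other genes, Il2ra, Il7r, Erg and Hhex among them. Of the 13, 4 were higher in DN3 (30.8%, against 2.67% of all genes) and 4 in fibroblasts (30.8%, near the 31.1% of all genes). After scaling these were 4 and 1, against 15.7% and 11.2%. Those higher in DN3 were Nrarp, a Notch feedback inhibitor (43.6% and 35.0% against 5.91%), Dtx1, a Notch-induced ubiquitin ligase (20.1% and 13.6% against 2.38%), and the cytokine receptor genes Il2ra (17.8% and 11.6% against 2.31%) and Il7r (17.3% and 6.67% against 0%). Those higher in fibroblasts were Rbpj (6.49% and 6.16% against 13.5%), Maml1, a Notch coactivator (2.98% and 5.03% against 15.98%), Hey1 (1.51% and 1.48% against 7.58%) and Erg (0.362% and 0.580% against 3.58%). After scaling Rbpj had less SMC1 in fibroblasts. Notch1, the receptor itself, was called in neither line, at 18.6% and 15.7% against 26.01%.

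Wnt feedback genes and targets had 2 of 16 higher in DN3 (12.5%, against 2.67% of all genes) and 7 in fibroblasts (43.8%, against 31.1%). After scaling 4 were higher in each line, against 15.7% and 11.2%. TCF-1 has 3 paralogues, and all were in this list. Lef1 was higher in DN3, at 6.45% and 6.38% against 2.86%. Tcf7l1 and Tcf7l2 were higher in fibroblasts, at 2.20% and 2.35% against 25.8% and at 0.408% and 0.742% against 20.1%, with 26 fibroblast-only regions at each. The other gene higher in DN3 was Rnf43, a ubiquitin ligase that lowers Wnt receptors (10.1% and 7.75% against 3.52%). Axin2 and Myc were in neither line's calls, at 5.35% and 7.04% against 4.72% for Axin2 and 44.6% and 34.4% against 57.8% for Myc. Sp5 had no SMC1 peak in any list.

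**Figure D5:**
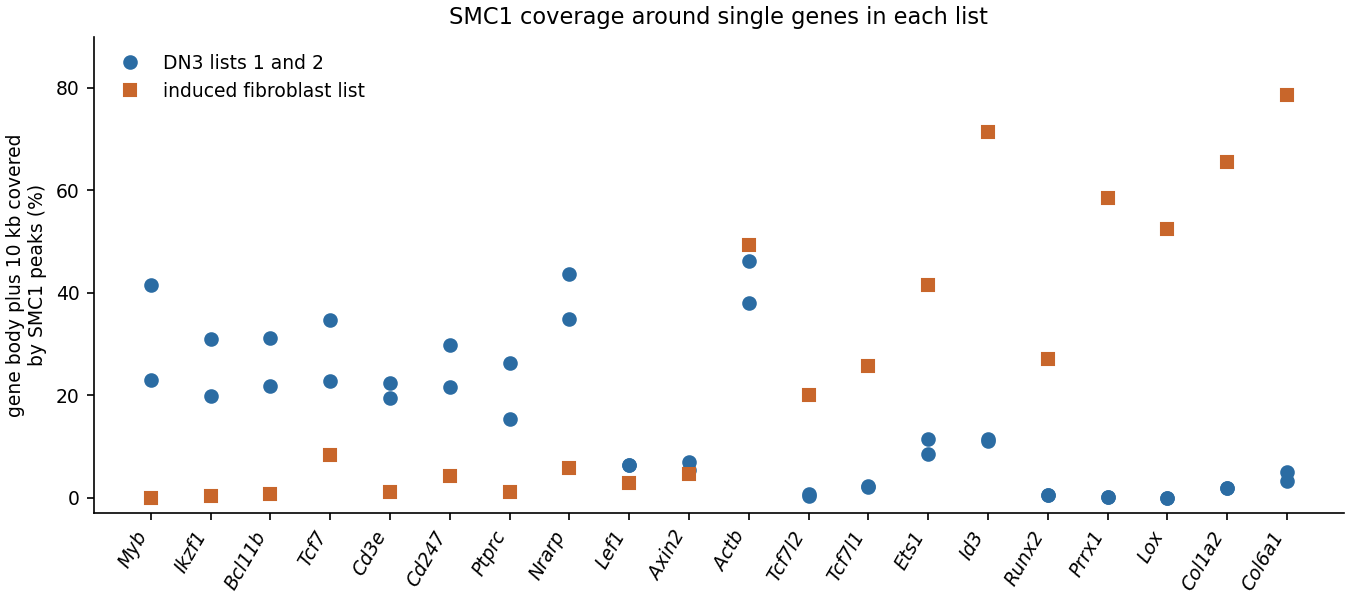
Percent of the gene body plus 10 kb covered by SMC1 peaks (vertical axis) for 20 genes; circles are the 2 DN3 lists and squares the fibroblast list. Genes from Myb to Nrarp lie above the fibroblast square in both DN3 lists, Axin2 and Actb lie close together, and genes from Tcf7l2 to Col6a1 lie higher in fibroblasts.

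Genes that every cell uses shared their cohesin. Of 15 housekeeping genes, 15 had a shared region and 10 had one at TCF-1 of both lines, against 70.2% and 15.9% of all genes. Actb was covered to 46.3% and 38.1% in DN3 and to 49.4% in fibroblasts. In this list 1 gene was higher in DN3 (Rpl13a, 17.1% and 14.1% against 5.36%) and 3 in fibroblasts (Gapdh, Tbp and Hprt), of which Gapdh had less in fibroblasts after scaling. Among the 16 genes of cohesin, its loader and CTCF, 16 had a shared region, 1 was higher in DN3 and 3 in fibroblasts. The one higher in DN3 was Ctcfl, a germline relative of Ctcf, at 11.005% and 12.2% against 2.25%. Those higher in fibroblasts were Smc1a, Mau2 and Hdac8, each under 10% in all 3 lists, and none of these was called after scaling.

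Shared cohesin with TCF-1 of both lines at the promoter itself was found in 16 of the 183 windows of list genes (8.74%), near the 9.28% of all 21238 windows. These belonged to 15 genes, among them Axin2, B2m, Cebpb, Ctcf, Fyn, Gapdh, Mau2, Pds5a, Pgk1 and Polr2a, and 5 of the 15 genes were housekeeping genes. Over all windows, TCF-1 of DN3 cells and of fibroblasts lay at 26.8% and 81.1% of the 7675 promoters with shared SMC1. At the 489 promoters with DN3-only SMC1 the shares were 6.95% and 3.68%, at the 2265 with fibroblast-only SMC1 they were 0% and 45.6%, and at the 10024 with no SMC1 they were 0.0299% and 0.299%.

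Markers of other cell types were looked at in the same way. Of 12 B lineage genes 2 were higher in DN3 and 1 in fibroblasts, of 12 myeloid genes 2 and 3, of 11 NK and innate lymphoid genes 1 and 3, and of 10 epithelial genes 1 and 1, against 2.67% and 31.1% of all genes. Median coverage of these 4 lists was 1.69% to 4.79% in DN3 list 1, 2.65% to 4.71% in DN3 list 2 and 2.94% to 6.44% in fibroblasts. After scaling, 8 of the 12 B lineage genes and 6 of the 12 myeloid genes were higher in DN3, against 15.7% of all genes, beside 13 of the 20 T lineage regulators. The windows of Vpreb1 and Igll1, both among the 8, overlap, so these are not separate cases. Ms4a1, Ncr1, Klrk1 and Epcam, members of these gene lists, had no SMC1 peak in any of the 3 SMC1 lists. Members called higher in DN3 included Tbx21 (18.1% and 14.8% against 2.78%), Irf4 (15.4% and 12.9% against 1.58%) and Itgam (10.7% and 8.85% against 2.09%). Those higher in fibroblasts included Nfil3 (9.58% and 10.2% against 59.8%), Ebf1 (0.181% and 0.243% against 9.60%) and Csf1r (0.843% and 0.768% against 6.37%). The part of other cells in these results was not tested. SMC1 peaks do not measure expression, but the T cell receptor and fibroblast matrix lists divided as the labels of the lines do. Ptcra, the surrogate receptor chain that defines the DN3 stage, was called in neither line, at 23.8% and 15.7% against 19.6%, while its promoter window held DN3-only SMC1.

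Some genes had many regions of 1 class. Esrrg, an orphan nuclear receptor gene, led the DN3-only class with 39 regions in a window of 626.4 kb, beside 5 fibroblast-only and 10 shared ones. Cacna1d, a calcium channel gene, had 35 DN3-only, 0 fibroblast-only and 4 shared regions, and Dnah8, a dynein gene, 32, 0 and 5. Bnc2, a zinc finger gene of fibroblasts, had 61 fibroblast-only regions and no other, so 20.9% of its window was covered in fibroblasts and 0% in either DN3 list. Camta1 had 71 fibroblast-only, 0 DN3-only and 8 shared regions. Gse1 had the most shared regions, 42, beside 25 DN3-only and 9 fibroblast-only ones, and its coverage was 22.9% and 20.1% in DN3 and 19.2% in fibroblasts.

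Most SMC1 of either line was also found in that line without TCF-1. Both knockout lists held 87.0% of the DN3-only and 98.6% of the shared regions. The untreated fibroblast list held 76.5% of the fibroblast-only, 97.2% of the shared and 14.6% of the DN3-only regions. When all 6 SMC1 lists were merged, 34 of 169893 regions were in the 3 lists with TCF-1 and in none of the 3 without. Leaving out 1 DN3 list moved this count to 206 (without list 1) or 84 (without list 2). DN3 TCF-1 lay at 0 of the 34 and fibroblast TCF-1 at 11 (32.4%), against 1.75% and 17.6% of all 169893 regions. In the regions held by all 6 lists the shares were 7.00% and 31.6%, so the fibroblast share of the 34 was near that of regions found in both lines. The reverse pattern, in the 3 lists without TCF-1 and none with it, was found in 952 regions, 4 of them at fibroblast TCF-1. The lists without TCF-1 were longer in each line (88886 and 96416 peaks in knockout cells, 105033 in untreated fibroblasts). With every list cut to equal length by keeping its widest peaks, the counts were 61 and 169. The 952 regions had a median width of 337 bp, against 519 bp for all 169893. List length and peak width therefore cannot be told apart in these counts. A further 35490 regions were in all 6 lists, 10404 in the 4 DN3 lists and no fibroblast list, and 32359 in both fibroblast lists and no DN3 list.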

How the data were processed

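Chromatin was immunoprecipitated after formaldehyde crosslinking and sequenced as paired reads, per the labels' protocols. Bowtie2, MACS2, bedtools and the mm10 build come from the submitters' processing notes. No versions, settings or control libraries are given in those sources. The values the authors deposited and that were used here are only the start and end of each peak, called separately for each sample, so the threshold and depth behind a peak are unknown.

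Groups were taken from the sample titles and the treatment labels. The titles call the Scid.adh cells with an empty vector wild type DN3 cells, whereas their treatment label reads empty vector. The 3 SMC1 lists were merged at a gap of 0 bp, and regions were put in classes by the lists that overlapped them by at least 1 bp. DN3 TCF-1 sites were merged peaks held by both lists. Where a readout with 2 lists is given as 1 value, a region counted when both lists overlapped it. Genes, starts and promoter sequences came from RefSeq tables of GRCm38.p6, and each region took the name of the gene body nearest to it. A gene was called by a 2-fold difference in covered length with at least 1000 bp, a minimum that was shorter for the DN3 lists after scaling. Shares are described without a test, and no p-value was computed.

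The regions, the 13 gene lists (214 entries, 212 genes, all matched) and the rules were chosen with earlier results of these data known. Named were Tcf7, up to 8 called genes per list with the largest difference in coverage, up to 8 regions per class at TCF-1 by width rank, up to 8 genes per class by number of regions, and up to 10 list genes with shared promoters at TCF-1. A gene that the rule names is not reported here. Further examples (Lef1 and Runx1 among them) were picked with their values known. The code and bedtools both gave 133638 merged regions, and 15000 of 15000 simulated regions got the class they were made with. Alternatives were other overlaps, gaps, widths, list lengths, windows, scalings and folds, each list left out, and, added after the data were seen, the number of peaks in place of covered length. Python 3.11.15, numpy 2.4.6, pandas 2.3.3, scipy 1.17.1, matplotlib 3.10.9 and bedtools 2.31.1 were used.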

Additional observations from a re-analysis of the deposited data

How the results depend on the processing

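Leaving out peaks narrower than their list's median gave 28405 fibroblast-only and 15841 shared regions, and 311 regions in the 3 lists without TCF-1 alone. Equal list length, reached by keeping the widest peaks of each list, gave 61 regions with TCF-1 only and 169 without it only. Leaving out either DN3 list gave 26026 to 29523 DN3-only regions, 84 to 206 regions with TCF-1 only, and 1303 to 1562 without it only. DN3 TCF-1 sites in either list lay at 1271 DN3-only and 4638 shared regions, and list 1 or list 2 alone at 759 or 980 DN3-only ones. Regions of middle width numbered 25124 fibroblast-only and 19893 shared, with DN3 TCF-1 at 188 DN3-only and 190 shared regions and fibroblast TCF-1 at 7479 fibroblast-only and 1932 shared regions. Over all alternatives, DN3 TCF-1 lay at 1.61% to 8.17% of DN3-only and 0.955% to 14.7% of shared regions, and fibroblast TCF-1 at 29.8% to 47.7% of fibroblast-only and 9.71% to 55.4% of shared regions. DN3 CTCF stayed at 72.4% to 84.2% of shared regions and at 14.6% to 52.7% of DN3-only ones.

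Genes higher in DN3 and in fibroblasts numbered 3446 and 2448 with scaling to the covered length of each list, 345 and 4161 at 3-fold, and 1648 and 3530 by number of peaks; without a minimum length 913 were higher in DN3. Of 780 values of the 78 named list genes under 10 alternatives, 11 changed sign, and the cause was not tested. On the gene body alone Krt8 had a fibroblast minus DN3 difference of -0.642 percentage points. With scaling, the difference in bp per covered Mb was -31.1 for Cebpb, -1.23 for Gapdh, -2.28 for Nkd2 and -28.9 for Rbpj. In number of peaks it was -2.5 for Cebpb, -2 for Col1a1, -1 for Ets1, -0.5 for Gapdh, -3 for Id3 and -1 for Vim.

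No paired analysis was possible because the fibroblast group has 1 SMC1 list without a replicate number and no result comes from a model. The missing read totals and the single fibroblast list limit every comparison between the lines.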

Other observations

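Chromosomes held unequal shares of the classes. Chromosome 1 held 10.1% of DN3-only regions against 7.25% of fibroblast-only and 6.89% of shared ones, and chromosome 10 held 8.43% against 5.43% and 5.80%. Chromosome 2 held 9.22% against 6.39% and 7.64%. TCF-1 of DN3 cells had 11.97% and 12.7% of its peaks in lists 1 and 2 on chromosome 1 and 12.9% and 13.9% on chromosome 10, against 7.06% and 5.96% of fibroblast TCF-1 peaks, but 6.25% and 6.44% on chromosome 2, against 6.61%. On chromosome 15 the DN3 TCF-1 lists had 7.63% and 7.34% of their peaks against 4.94% in fibroblasts. The number of copies of each chromosome in either line was not measured here.

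Single genes could hold cohesin of both kinds in separate places. At least 10 DN3-only and at least 10 fibroblast-only regions lay at 28 genes, among 137 genes with at least 10 DN3-only and 753 with at least 10 fibroblast-only regions. Rora, which encodes a nuclear receptor of innate lymphoid and other cells, had 28 DN3-only, 34 fibroblast-only and 21 shared regions, and its coverage was 4.79% and 3.70% in DN3 and 4.43% in fibroblasts. Lpp, an actin adhesion gene, had 15, 45 and 11, and Ppm1h, a phosphatase gene, 25, 11 and 8.

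The genes with the largest differences in coverage over all genes were mostly outside the fixed lists. Rhoh, a haematopoietic GTPase gene, was covered to 49.9% and 33.8% in the DN3 lists and 0% in fibroblasts, and Cxcr4 to 48.5% and 33.3% against 0%. Thbs2 was covered to 85.6% in fibroblasts and 0% in both DN3 lists, and Hoxa2 and Hoxa4 to 80.5% each against 0%.

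Of the 452 DN3-only regions at DN3 TCF-1, 13 (2.88%) were missing from at least 1 knockout list. Of these, 3 lay in Ifi202b, an interferon-inducible gene, and 1 lay 3800 bp from Lef1. The widest, 3191 bp at chr5:53504702-53507892 and 47887 bp from Rbpj, held neither H3K27ac nor CTCF of both DN3 lists and was in the untreated fibroblast list.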
